A study of Mus musculus with 14 samples.

Results

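The effect of losing Rbp7 was examined in mouse carotid arteries exposed to rosiglitazone, by comparing 4 knockout (KO) libraries with 3 wild-type (WT) libraries. These are the 7 rosiglitazone libraries of a series of 14. The other 7 were made from arteries given the solvent DMSO, 4 KO and 3 WT. All animals were male and of the C57BL/6J background, and rosiglitazone was given at 10 µM for 24 h. The design text speaks of removed arteries being treated and the treatment protocol of mice, so the route of exposure is not settled by the labels. The age of the mice, the construction of the Rbp7 allele and the number of animals per library were not given in the sources used here. Nor do the labels say that replicates came from separate animals, so p-values measure only the spread between these libraries, which may be technical.

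RBP7 is a cytosolic protein that binds retinoids and belongs to the family of fatty acid and retinoid carriers. Rosiglitazone is a thiazolidinedione that binds and activates PPARγ, a nuclear receptor that pairs with the retinoid X receptor on DNA and turns on genes of lipid uptake and storage. In the artery wall PPARγ is known for roles in endothelium and smooth muscle that bear on vessel tone. RBP7 is itself known as a PPARγ target in endothelium.

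Values were the deposited TPM, the share of a transcript in its library scaled to a fixed total. Because TPM carries no read count, the sequencing depth is unknown and no counting interval is given. Of 63244 transcripts, 26394 reached at least 1 TPM in at least 3 of the 7 libraries and were tested. Between 37843 and 38720 transcripts were above 0 in a library. The tables used here do not pair the identifiers with genes, so transcripts are described by identifier, the level of Rbp7 does not check the genotype labels, and markers of the artery wall and of neighbouring tissues were not read. Below, KO values are given in the order of the libraries numbered 2, 4, 18 and 21, and WT values in the order of those numbered 6, 8 and 10. No KO number lies within the WT range from 6 to 10, and the labels do not explain the numbers, so genotype and number cannot be told apart. The KO library numbered 21 stood apart: its 2 most abundant transcripts held 37.5% of the TPM, against 41.8% to 48.8% in the other 6 libraries, and it had the most transcripts at 1 TPM or more, 26716. On the first principal component, with 25.2% of the variance, it lay at 78.7 and the other 6 libraries between -29.6 and 19.1. Rank correlation between libraries (Spearman, across transcripts) was no higher within a genotype, with a median of 0.893 for 9 pairs, than between genotypes, with 0.897 for 12 pairs.

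Few transcripts separated the genotypes under rosiglitazone, and all of those called were of low abundance. With limma and Benjamini-Hochberg adjustment over all tested transcripts, 14 passed an adjusted p of 0.05, which is 0.0530% of those tested. Of these, 6 rose in KO (0.0227%) and 8 fell (0.0303%). The highest value of a called transcript in any of the 7 libraries ranged from 3.12 to 18.2 TPM. In 11 of the 14, 1 genotype was below 0.1 TPM in every library, so these passed the abundance filter only through the other genotype. Most or all of their separation was therefore fixed by the filter. In bulk RNA, fewer cells that carry a transcript and less of it per cell cannot be told apart.

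The calls depended on which libraries entered the fit. Leaving out the KO library numbered 2 gave 16 calls, 7 of them among the 14, and leaving out the one numbered 4 gave 8, 5 of them among the 14. Leaving out the KO library numbered 18 or the one numbered 21, or the WT library numbered 6 or 8, each left 0 calls, with 719, 823, 816 and 646 transcripts at an unadjusted limma p under 0.05. Without the WT library numbered 10 there was 1 call, which was not among the 14. No called transcript changed direction in those of these fits that tested it. Dropping a WT library also removed from testing those transcripts seen in WT alone.

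Wider criteria gave larger groups. An unadjusted p under 0.05 was reached by 759 transcripts (2.88%). In 886 transcripts (3.36%) every KO value lay on 1 side of every WT value, 545 of them higher in KO (2.06%) and 341 lower (1.29%). Over all tested transcripts the difference was positive in 15954 and negative in 10440, a lean toward higher values in KO. The median log2 difference was 0.05, and -0.0019 after median-of-ratios scaling. Without the KO library numbered 21 the median was -0.022, so the lean was not kept without that library. With any other single library left out the median stayed between 0.026 and 0.093. A log2 difference of at least 1 in size was found in 506 (1.92%). If the genotypes did not differ, a share of 0.05 would be expected at an unadjusted p under 0.05. The share expected with 4 libraries fully apart from 3 would be 0.0571. Both observed shares were below these, so the counts alone show no excess of genotype differences.

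**Figure D1:**
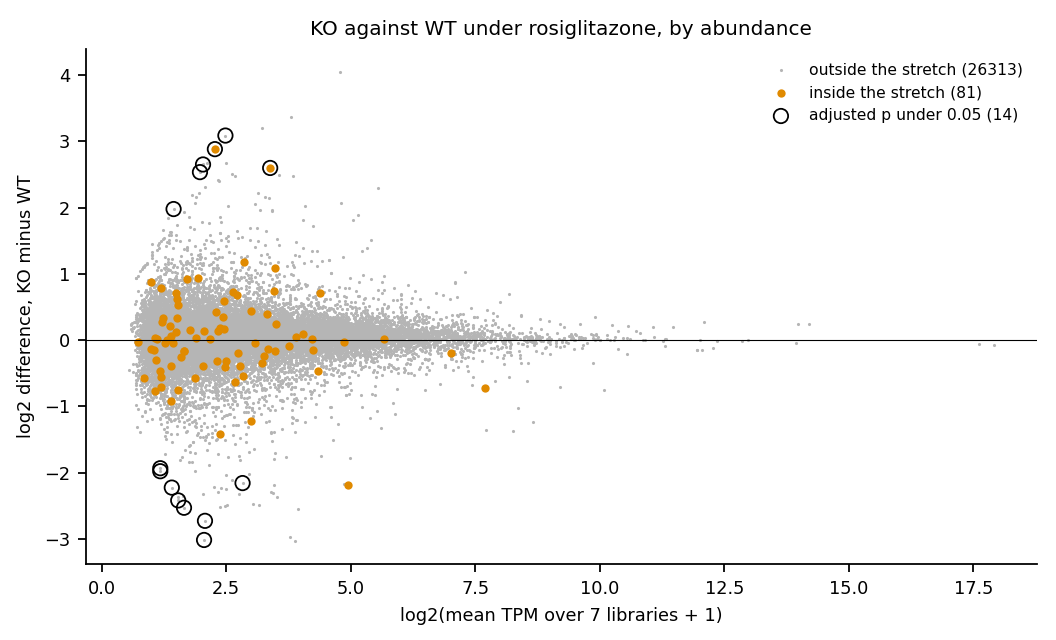
Each point is 1 of the 26394 tested transcripts, with log2 of its mean TPM plus 1 over the 7 rosiglitazone libraries on the x axis and the log2 difference, KO minus WT, on the y axis. Orange points are the 81 transcripts of the identifier stretch uc008vot to uc008vwh and circles the 14 with an adjusted p under 0.05, which lie at low abundance.

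The identifier stretch from uc008vot to uc008vwh was taken separately, as a run of neighbouring rows proposed with the genotype differences of both treatments already known. Its counts are therefore a description. The stretch holds 174 identifiers, of which 81 passed the filter and 93 did not. Of those 93, 37 were listed at 0 in all 7 libraries. The highest value among the untested ones was 16.8 TPM, for uc008vuf.1 in the KO library numbered 4. This transcript had 2.95 TPM in the KO library numbered 2 and less than 0.1 TPM in the other 5 libraries.

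Inside the stretch, 2 of the 81 tested transcripts were called, both higher in KO. At an unadjusted p under 0.05 there were 20 (24.7% of the 81, against 2.81% of the 26313 tested outside), 9 higher and 11 lower. The groups did not overlap in 18 (22.2%, against 3.30% outside), 8 higher and 10 lower. The median difference was 0.01 on the log2 scale inside and 0.05 over all tested transcripts, and the median size of a difference was 0.34 inside and 0.14 over all. Differences inside the stretch were thus larger in size and ran in both directions, with 41 positive and 40 negative.

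The first called transcript of the stretch, uc008vwd.1, was near absent from WT. It had 3.49, 7.03, 7.45 and 8.85 TPM in the KO libraries, was listed at 0 in the WT libraries numbered 6 and 8, and had 0.0120 TPM in the one numbered 10. All 4 KO values were above all 3 WT values. With WT this low, the abundance filter had required at least 3 KO libraries at 1 TPM or more. The fitted log2(TPM + 1) difference was 2.88 (SE 0.28, limma adjusted p = 0.0235). Leaving out each library in turn kept the direction and left it past the threshold in 1 of 7 fits.

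The other call was uc008vwh.1, the last identifier of the stretch and the most abundant of the 14 called. KO libraries had 14.3, 18.2, 12.4 and 15.9 TPM and WT libraries 0.755, 2.33 and 2.19 TPM. The groups, at 15.2 ± 2.47 (SD, n = 4) and 1.76 ± 0.871 TPM (SD, n = 3), did not overlap. The log2 difference was 2.60 (SE 0.26, limma adjusted p = 0.0235), and the adjusted p lay between 0.0503 and 0.147 in the 7 fits that left out 1 library each, so none of these kept the call, while the log2 difference stayed between 2.30 and 2.76.

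A transcript lower in KO, uc008vsh.3, came close to the threshold without passing it. Its KO values were 2.22, 1.44, 2.11 and 2.37 TPM and the WT values 7.59, 6.88 and 6.71 TPM, a log2 difference of -1.42 (SE 0.18, adjusted p = 0.0529). The groups were well separated, with the lowest WT value above the highest KO value. It passed in 5 of 17 alternative settings (lowest adjusted p 0.0093, in the fit over all 14 libraries), median-of-ratios and quantile scaling among them, and was called in DMSO (log2 difference -1.63, adjusted p = 0.0461). Its values were identical in all 14 libraries to those of uc033igm.1, an identifier outside the stretch, so both stand for 1 measurement.

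The largest difference toward lower values in KO within the stretch was that of uc008vqa.2. KO libraries had 8.34, 13, 10.7 and 9.99 TPM and WT libraries 84.0, 51.0 and 30.1 TPM. Every WT value exceeded every KO value, but WT varied by more than the KO libraries did, and the log2 difference of -2.18 (SE 0.31) had an adjusted p of 0.108 (limma).

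In the opposite direction, uc008vtf.1 had 8.10, 8.63, 8.34 and 9.07 TPM in KO and 3.22, 2.51 and 3.95 TPM in WT. The KO values were tightly grouped and all above WT, and the log2 difference was 1.19 (SE 0.17, adjusted p = 0.108, limma).

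The first identifier of the stretch, uc008vot.2, was its most abundant member, with 155, 152, 158 and 179 TPM in KO and 255, 256 and 287 TPM in WT. The means were 161 ± 12.1 (SD, n = 4) and 266 ± 18.0 TPM (SD, n = 3) and the groups did not overlap. The log2 difference of -0.72 (SE 0.11) had an adjusted p of 0.167 (limma). It is the only transcript of the stretch among the 635 tested ones with a mean of at least 100 TPM for which the groups were apart. Of the next 4 members by mean TPM, uc008vvv.1 (log2 difference -0.20), uc008vuw.1 (0.02) and uc008vpc.2 (-0.03) overlapped between the genotypes and uc008vqa.2, described above, did not.

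The remaining separated members of the stretch had higher adjusted p-values. For uc008vvx.2 the KO values were 2.96, 2.97, 6.62 and 3.92 TPM and the WT values 11.2, 13.1 and 7.84 TPM (log2 difference -1.22, SE 0.28, adjusted p = 0.897, limma). Transcript uc008vpl.1 had 20.3, 22.8, 22.6 and 30.3 TPM in KO and 14.3, 13.2 and 15.1 TPM in WT, a log2 difference of 0.71. Transcript uc008vtc.1 had 10.1, 11.9, 11.9 and 15.3 TPM in KO and 8.39, 6.49 and 6.00 TPM in WT, a difference of 0.74. In each of these 3 the genotypes were apart, though none passed the adjusted threshold. Transcripts uc008vtt.1 (0.79), uc008vup.1 (0.73), uc008vpt.1 (0.62), uc008vta.2 (-0.92), uc008vuh.3 (-0.77), uc008vtj.2 (-0.75), uc008vsq.1 (-0.57) and uc008vvr.2 (-0.41), with log2 differences in brackets, were also apart and short of the adjusted threshold. So was uc008vsg.2 (-0.39), whose unadjusted p of 0.0772 was above 0.05. In uc008vqw.1 (0.87), uc008vtd.2 (-0.70) and uc008vtb.3 (-0.54) the unadjusted p was under 0.05 but the groups overlapped. No KO library reached 1 TPM of uc008vuh.3, so the abundance filter itself required its separation.

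**Figure D2:**
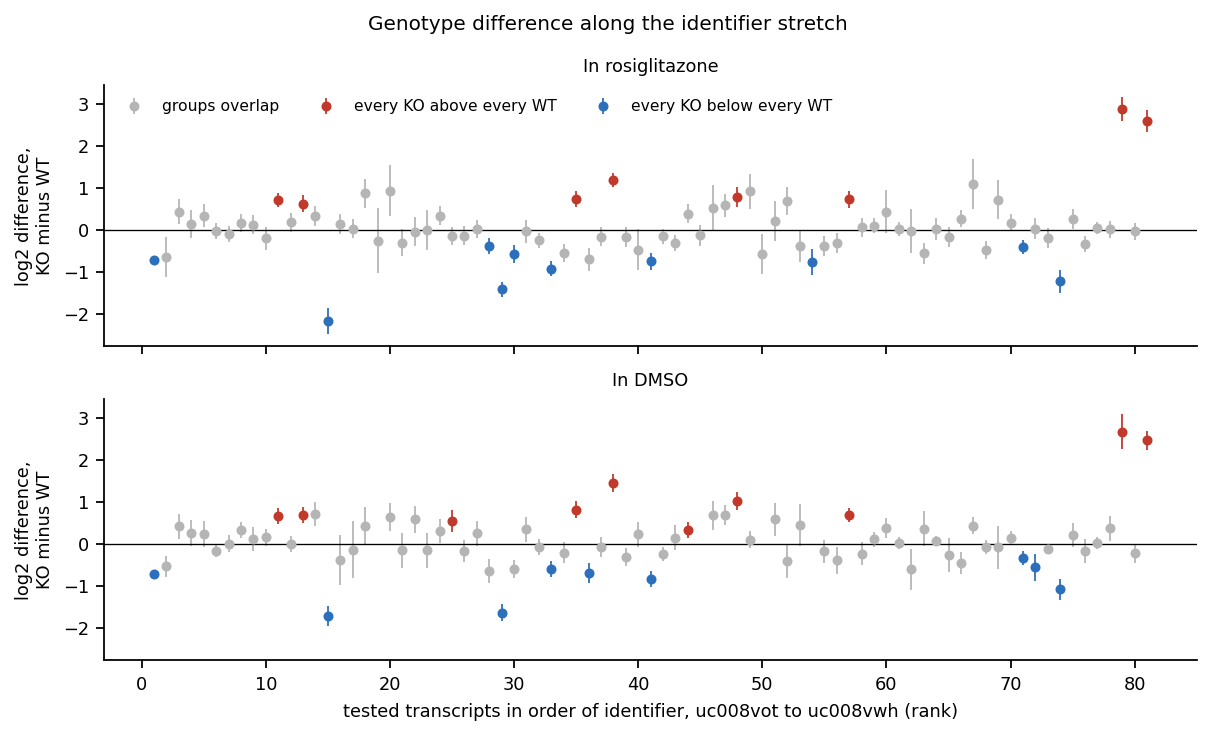
The 81 tested transcripts of the stretch are ordered by identifier rank on the x axis, and the y axis gives the log2 difference, KO minus WT, with bars of 1 standard error, in rosiglitazone above and in DMSO below. Red points have every KO library above every WT library and blue points the reverse; 8 are red and 10 blue in rosiglitazone, among grey points whose groups overlap.

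**Figure D3:**
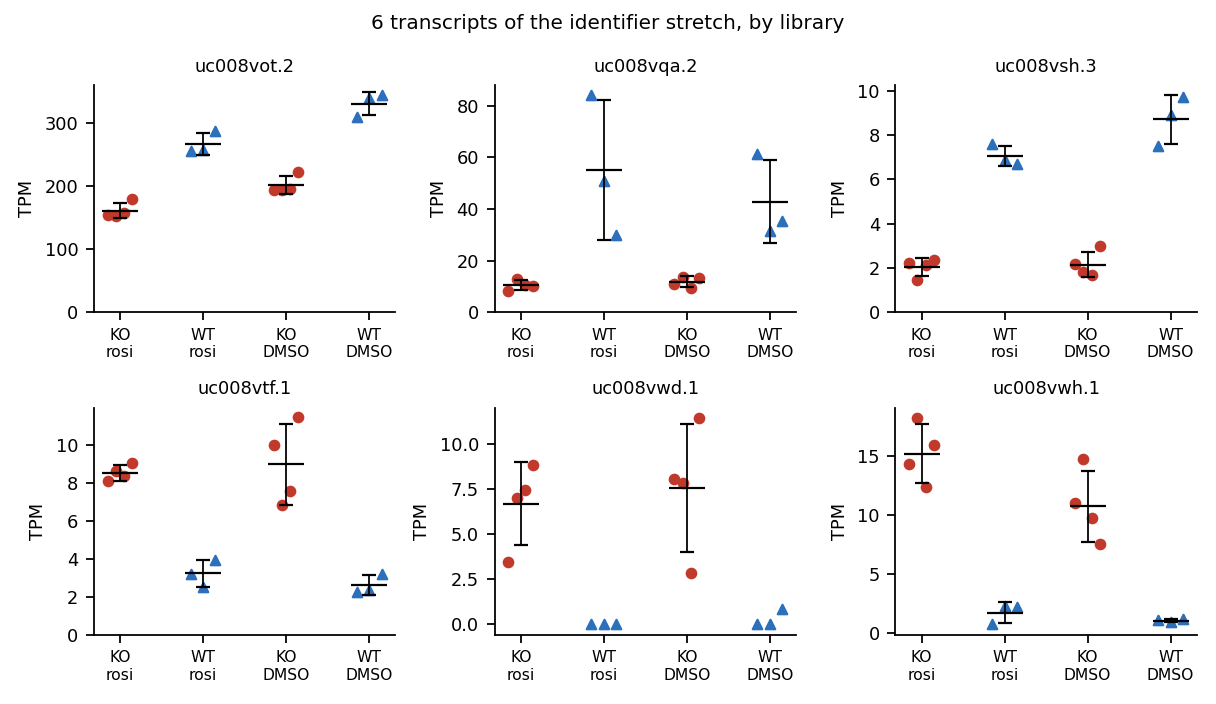
Each panel gives the TPM of 1 transcript of the stretch in every library (KO red circles, WT blue triangles), with black bars for mean and SD except where a group has a library listed at 0. The genotypes were apart within both treatments in all 6: uc008vtf.1, uc008vwd.1 and uc008vwh.1 were higher in KO, and uc008vot.2, uc008vqa.2 and uc008vsh.3 were lower.

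Because the stretch was proposed with the genotype differences already known, a contrast with its flanks is a description and does not test its edges. The separation thinned on both sides of the stretch, by different amounts. Among the 81 tested transcripts just before it, 7 had groups that did not overlap, 6 had an unadjusted p under 0.05 and 0 were called. Among the 81 just after it, these counts were 1, 2 and 0. Over all tested transcripts 3.36% were apart and 2.88% had an unadjusted p under 0.05. The shares before the stretch were above these and the shares after it below. The transcript directly before the first identifier, uc008vos.2, had 11.6, 10.8, 11.4 and 15 TPM in KO and 53.8, 18.1 and 48.4 TPM in WT (log2 difference -1.51, SE 0.35, adjusted p = 0.905, limma). Its groups were apart too, so the lower edge of the range does not mark where separation ended. The transcript directly after the last identifier, uc008vwi.1, overlapped between genotypes with a log2 difference of -0.03. Genome positions were not given in the sources used here, and the order is that of the table.

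The DMSO libraries gave a second comparison of the genotypes that shares no library with the rosiglitazone one, although the labels do not say whether animals were shared. Fitted on its own it tested 27124 transcripts and called 17 (0.0627%), 6 higher in KO and 11 lower, with 974 (3.59%) at an unadjusted p under 0.05. Only 2 transcripts were called in both treatments, uc008vwh.1 inside the stretch and uc012dpf.2 outside it.

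Of the 20 transcripts inside the stretch with an unadjusted p under 0.05 in rosiglitazone, 19 were tested in DMSO. All 19 had the same sign there and 16 also had a p under 0.05. The stretch was proposed with the differences of both treatments known, so this agreement is a description and not independent support. Outside, 673 of 739 were tested in DMSO, 458 had the same sign, and 57 had a p under 0.05 with the same sign against 11 with the opposite one. Counted by separation, 77 tested transcripts (0.292%) were apart in the same direction in both treatments, 15 of them inside the stretch and 62 outside. With uc008vsh.3 and uc033igm.1, which have equal values, counted once, there were 76. Those apart in opposite directions numbered 0 inside and 10 outside. For scale, 1311 (4.97%) of the transcripts tested in rosiglitazone were apart in DMSO.

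The 15 members apart in both treatments comprised 8 higher in KO, with log2 differences under rosiglitazone from 0.62 to 2.88, and 7 lower, from -2.18 to -0.41. The size of the difference was close between treatments for those with the clearest separation. Transcript uc008vwh.1 had 11.0, 14.7, 9.77 and 7.55 TPM in KO with DMSO and 1.09, 0.928 and 1.22 TPM in WT, a log2 difference of 2.47 (SE 0.22, adjusted p = 0.0120, limma). Transcript uc008vot.2 had 194, 193, 194 and 222 TPM in KO and 309, 339 and 343 TPM in WT with DMSO, again a difference of -0.72 (SE 0.09, adjusted p = 0.0599, limma). In both, the genotypes were apart in DMSO as they had been under the drug. Transcript uc008vwd.1 was less even in DMSO, with 8.07, 7.84, 2.83 and 11.4 TPM in KO and 0.865 TPM in 1 WT library, the other two being below 0.1 TPM (difference 2.67, SE 0.42, adjusted p = 0.167, limma).

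Whether the genotype difference itself changed with the drug was tested by an interaction term over all 14 libraries. The fit treated the libraries as independent, and the labels do not say whether drug and DMSO libraries share animals. Across 29304 transcripts 2 passed (0.00683%), neither inside the stretch, and 627 had an unadjusted p under 0.05. Inside, 2 of the 81 had an unadjusted p under 0.05 and the smallest adjusted p was 1.00. For the 15 members apart in both treatments, the difference between the rosiglitazone and DMSO effects was at most 0.45 in size on the log2 scale.

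Outside the stretch, 12 of 26313 tested transcripts were called, 4 higher in KO and 8 lower. In 10 of the 12, 1 genotype was below 0.1 TPM in every rosiglitazone library, and in 5 it was listed at 0 throughout. In DMSO 2 of the 12 were apart in the same direction, uc012dpf.2 and uc057aex.1, and 1 was apart in the opposite direction. For uc057aex.1 this rested on values near 0, with a lowest KO value of 0.000329 TPM and a highest WT value of 0.000314 TPM in DMSO, and the transcript was not tested there. In 10 of the 12, at least 1 genotype in DMSO held both libraries below 0.1 TPM and libraries above it.

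Transcript uc012dpf.2 differed from the other 11 in being above 1 TPM in all 14 libraries. Under rosiglitazone it had 2.18, 2.27, 1.71 and 1.29 TPM in KO and 9.38, 12.1 and 13.8 TPM in WT. The lowest WT value was far above the highest KO value. The log2 difference was -2.16 (SE 0.21, limma adjusted p = 0.0235), and in DMSO, with 2.49, 2.38, 1.49 and 2.47 TPM in KO and 11.4, 12.4 and 12.4 TPM in WT, it was -2.04 (SE 0.18, adjusted p = 0.0120). The call held in 2 of 7 fits that left out a library.

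Some of its tested neighbours in the table, chosen after their values were seen, were also apart. The 9 rows from uc012doy.1 to uc012dpg.1 hold 4 tested transcripts, and 3 were apart in both treatments. Transcript uc012dpg.1 went the other way from uc012dpf.2, with 12, 13, 14.9 and 16.9 TPM in KO and 6.34, 4.32 and 6.54 TPM in WT (log2 difference 1.18, SE 0.19, adjusted p = 0.192, limma). Transcript uc012doy.1 had 1.74, 1.53, 1.17 and 1.02 TPM in KO and 6.49, 5.05 and 3.73 TPM in WT (log2 difference -1.35, SE 0.22, adjusted p = 0.211). The fourth, uc012dpb.1, overlapped between genotypes (-0.33). None of these 3 neighbours passed the threshold.

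The called transcripts absent from KO had low values in WT. Transcript uc007tgk.1 was listed at 0 in all 4 KO libraries and had 5.92, 3.69 and 3.70 TPM in WT (fitted log2 difference -2.42, SE 0.23, adjusted p = 0.0235, limma). Transcript uc033jde.1 was listed at 0 in KO and had 7.52, 3.72 and 3.78 TPM in WT (-2.53, SE 0.26, adjusted p = 0.0237). Transcript uc007mom.1 was listed at 0 in KO and had 2.77, 2.92 and 3.12 TPM in WT (-1.98, SE 0.20, adjusted p = 0.0237). With every KO library at 0, the abundance filter required all 3 WT libraries at 1 TPM or more. These separations were therefore fixed by the filter, and they were not repeated in DMSO. There uc007mom.1 had 2.28, 3.72, 3.14 and 1.86 TPM in KO and 2.33 TPM in 1 WT library, with 0 listed in the other two. In DMSO uc007tgk.1 was listed at 0 in 2 of 4 KO and 1 of 3 WT libraries, and uc033jde.1 in 3 of 4 KO and 1 of 3 WT libraries.

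Other called transcripts lower in KO were nearly rather than fully absent. Transcript uc007jdq.1 had 0.0200, 0.0265, 0.0180 and 0.0245 TPM in KO and 2.55, 2.93 and 3.25 TPM in WT (-1.93, SE 0.20, adjusted p = 0.0237, limma), yet in DMSO 3 of the 4 KO libraries had 2.98, 2.94 and 4.12 TPM. Transcript uc009hyu.2 had 0.836 TPM in the KO library numbered 2, less than 0.1 TPM in the other 3 KO libraries, and 8.24, 9.04 and 4.26 TPM in WT (-2.73, SE 0.32, adjusted p = 0.0444). The call of uc009hyu.2 was lost in 11 of 16 alternative settings, median-of-ratios and quantile scaling and both other pseudocounts included, with the direction kept. Transcript uc008nuz.1 was below 0.1 TPM in all KO libraries and had 5.82, 3.09 and 2.66 TPM in WT (-2.22, SE 0.26, adjusted p = 0.0444). In all 3 the lowest WT value under rosiglitazone was above the highest KO value. No KO library reached 1 TPM in any of them, so they passed the abundance filter only because every WT library did. Their separation was therefore fixed by the filter.

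Of the 4 called transcripts higher in KO outside the stretch, all were listed at 0 or below 0.1 TPM in every WT library. The abundance filter therefore required at least 3 of the 4 KO libraries at 1 TPM or more, which fixed most of their separation. Transcript uc057aex.1 had 7.51, 4.33, 4.07 and 5.78 TPM in KO (fitted log2 difference 2.65, SE 0.23, adjusted p = 0.0235, limma). Transcript uc011ztp.1 had 9.86, 3.84, 6.88 and 11.6 TPM in KO and was listed at 0 in all 3 WT libraries (3.09, SE 0.32, adjusted p = 0.0237). In DMSO the latter had 3.41, 7.11 and 3.66 TPM in WT and was listed at 0 in 2 of the 4 KO libraries, so its separation was not repeated. Transcript uc057abb.1 had 3.27, 6.81, 3.08 and 7.32 TPM in KO (2.54, SE 0.31, adjusted p = 0.0468), and in DMSO WT libraries reached 3.86 and 7.09 TPM. Transcript uc011xvn.1 had 2.72, 2.50, 2.45 and 4.37 TPM in KO (1.98, SE 0.23, adjusted p = 0.0444), and in DMSO 1 of 4 KO libraries, with 2.79 TPM, was above 0.1 TPM. Transcript uc057aex.1 had 4.52 and 12.7 TPM in 2 of the 4 KO libraries in DMSO and was below 0.1 TPM in the other two and in WT.

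**Figure D4:**
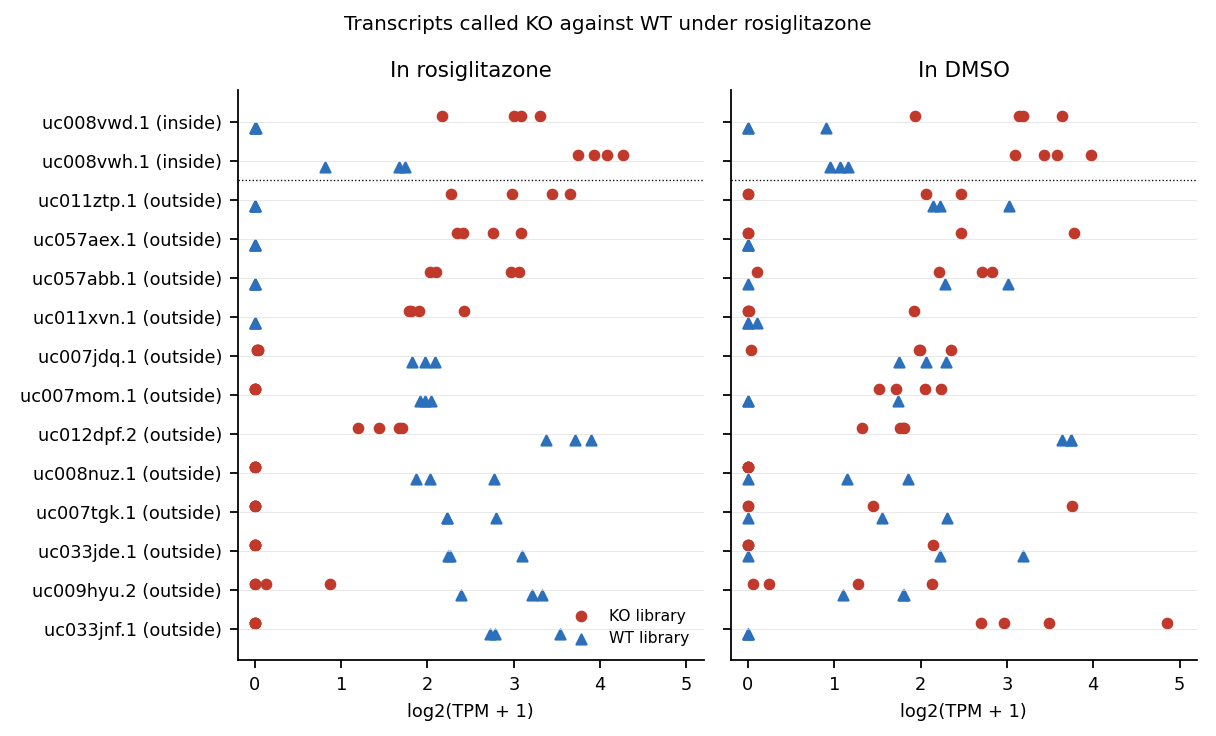
The 14 called transcripts are listed by identifier, with log2(TPM + 1) in each KO (red circle) and WT (blue triangle) library on the x axis, in rosiglitazone on the left and in DMSO on the right. A dotted line parts the 2 transcripts of the stretch from the 12 outside. In rosiglitazone all 14 separate the genotypes, and in DMSO 4 do so in the same direction, among them uc057aex.1 by a gap too small to see on this axis. Where no KO library reached 1 TPM in rosiglitazone, the abundance filter required the separation there.

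A pair of transcripts outside the stretch had genotype differences of opposite sign in the 2 treatments. Transcript uc033jnf.1 was listed at 0 in each of the 4 KO libraries with the drug and had 5.60, 10.6 and 5.88 TPM in WT (fitted log2 difference -3.01, SE 0.25, adjusted p = 0.0235, limma). In DMSO it was listed at 0 in all 3 WT libraries and had 6.81, 5.52, 10.2 and 28.0 TPM in KO. The difference of the 2 genotype effects was -6.52 (SE 0.56, limma adjusted p of the interaction 0.00035).

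The reverse held for uc033hga.1, which had 9.24, 3.58, 3.24 and 7.18 TPM in KO with rosiglitazone and was listed at 0 in WT. Its difference of 2.67 (SE 0.33) fell just short of the threshold in this comparison (adjusted p = 0.0509, limma), and it passed in 7 of 14 alternative settings. In DMSO it was listed at 0 in all 4 KO libraries and had 6.33, 13.1 and 10.3 TPM in WT, and the interaction was 6.06 (SE 0.42, adjusted p = 5.53e-05). Both transcripts therefore were seen in every library of 2 groups and in 0 libraries of the other two.

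Beside these, uc007lfk.2 was listed at 0 in WT and had 2.19, 2.69, 3.68 and 1.99 TPM in KO (fitted log2 difference 1.84, adjusted p = 0.0509, limma). Transcript uc009ldh.2 was listed at 0 in KO and had 2.22, 5.88 and 5.27 TPM in WT (-2.37, SE 0.29, adjusted p = 0.0509). Among all tested transcripts, 3 were listed at 0 in all WT and above 0 in all KO libraries, 1 of them called, and 8 were listed at 0 in all KO and above 0 in all WT libraries, 4 of them called. None of these 11 was inside the stretch. With 1 genotype at 0, the abundance filter required at least 3 libraries of the other genotype at 1 TPM or more.

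Of the 62 transcripts outside the stretch that were apart in the same direction in both treatments, 37 were higher in KO and 25 lower. A lean toward positive differences was also present over all tested transcripts, where it was not kept without the KO library numbered 21. In 9 of them, 3 higher and 6 lower, the log2 difference was at least 1 in size in both treatments: uc012dpf.2, uc009rgf.1, uc033igm.1, uc012dpg.1, uc029vau.1, uc008vos.2, uc012dpq.2, uc007zee.1 and uc033fko.1. Of these, uc033igm.1 repeats the values of uc008vsh.3 inside the stretch. Transcript uc009rgf.1 had 0.721, 1.67, 2.76 and 1.03 TPM in KO and 13.9, 8.60 and 11.4 TPM in WT (-2.31, SE 0.30, adjusted p = 0.0529, limma), and in DMSO the difference was -2.29 (SE 0.33, adjusted p = 0.110). Transcript uc012dpq.2 had 11.8, 10.4, 7.47 and 14.8 TPM in KO and 3.77, 0.00468 and 3.82 TPM in WT (2.05, SE 0.53). Both were apart in every pair of KO and WT libraries within a treatment, though neither passed the adjusted threshold under rosiglitazone.

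**Figure D5:**
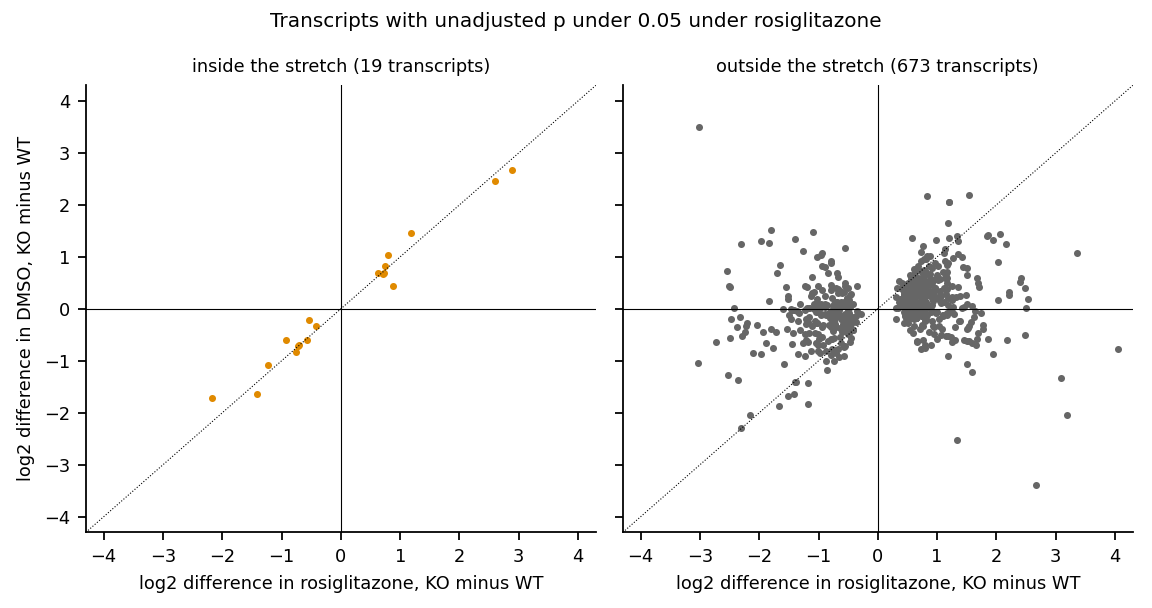
Each point is a transcript with an unadjusted p under 0.05 in rosiglitazone that was also tested in DMSO, with the log2 difference, KO minus WT, in rosiglitazone on the x axis and in DMSO on the y axis. All 19 transcripts of the stretch (left) lie in the quadrants of equal sign, as do 458 of the 673 outside (right). The stretch was proposed with the differences of both treatments known. The dotted line marks equal differences.

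Among abundant transcripts little separated the genotypes. Of 635 with a mean of at least 100 TPM, 0 were called by limma. An unadjusted p under 0.05 was reached by 7 (1.10%, against 2.88% of all tested transcripts). Groups did not overlap in 7 (1.10%, against 3.36%). The largest difference among those named was in uc008opl.2, with 218, 277, 135 and 118 TPM in KO and 557, 427 and 397 TPM in WT (log2 difference -1.37, SE 0.30, adjusted p = 0.779). All KO values were below all WT values, and the KO libraries numbered 18 and 21 were the lowest. In DMSO its difference was -0.03, and the interaction of -1.33 did not pass. The KO replicates were split in DMSO too, with 116 and 121 TPM in the first 2 and 67.9 and 53.1 TPM in the others. WT libraries had 71.6, 82.5 and 109 TPM there.

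Transcript uc008yzm.2 had 131, 116, 168 and 180 TPM in KO and 92.4, 93.8 and 98.0 TPM in WT, so the genotypes were apart, with a log2 difference of 0.62 (SE 0.17, adjusted p = 1.00, limma). In uc007izi.3 the KO libraries split by sample number, with 374 and 423 TPM in those numbered 2 and 4 and 89.3 and 124 TPM in those numbered 18 and 21, against 315, 414 and 552 TPM in WT. The KO and WT values overlapped (log2 difference -1.02, SE 0.54, adjusted p = 1.00). The same split was seen in DMSO, with 529 and 497 TPM in the first 2 KO replicates and 105 and 86.8 TPM in the others. The 4 most abundant transcripts, uc009vev.1 (log2 difference -0.07), uc012hdk.1 (-0.06), uc029sug.1 (0.25) and uc033jng.1 (0.24), all overlapped between genotypes.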

How the data were processed

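Per the labels' protocols, carotid artery RNA was isolated with Trizol and a column step, with DNase digestion. The authors deposited TPM values for 63244 transcripts in 14 libraries. FastQC, kallisto and sleuth are named in the submitters' processing notes; their versions, the annotation and strandedness were not given in the sources used here. TPM are estimates that divide reads among similar transcripts, so a value of 0 can mean that no reads were assigned. Since TPM is a share, a shift in very abundant transcripts moves the rest.

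The sample number in labels and header tied each column to its sample. Of 63244 identifiers, 0 matched the gene tables used here, so the marker and pathway lists and the part of the naming rule on Rbp7 were not applied, and no sequence is shown. Transcripts that reached 1 TPM in 3 or more of the 7 libraries were tested on log2(TPM + 1) with limma 3.58.1 (variance trend on abundance, two-sided) in R 4.3.3, with Benjamini-Hochberg adjustment over all of them. Fold changes on this scale understate those of low transcripts. The DMSO libraries were fitted alone in the same way, and the interaction over all 14. The fit was checked on simulated data. Plots used matplotlib 3.10.9 in Python 3.11.15.

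Named transcripts were all called ones, those inside the stretch that were apart by a log2 difference of at least 1, the next 3 outside per direction, the 3 per direction with the smallest p and a mean of at least 100 TPM, the 4 most abundant, and up to 3 per direction listed at 0 in 1 genotype. Others named were chosen after their values were seen. The comparison, the stretch and the lists were chosen with earlier results of these data known. Identical rows were kept: 217 of those tested formed 74 groups with equal values throughout. Alternatives covered pseudocount, filter, scaling, variance model, replicate block, library weights and leaving out libraries.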

Additional observations from a re-analysis of the deposited data

Results flagged for a closer look

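In 34 sets of 4 KO rosiglitazone values checked for a lone extreme library (Dixon's ratio of gap to range), 3 exceeded the 95% critical value, where chance gives about 1 in 20. For uc011xvn.1 the ratio was 0.857, from 4.37 TPM in the KO library numbered 21. For uc009hyu.2 it was 0.888, from 0.836 TPM in the KO library numbered 2. On the first principal component it was 0.877, from the position of the KO library numbered 21.

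The genotype effect differed between rosiglitazone and DMSO by -6.52 for uc033jnf.1 and by 6.06 for uc033hga.1 on the log2 scale (limma interaction).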

How the results depend on the processing

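Of 14 calls, 5 were kept with a pseudocount of 0.1 (6 calls: 1 inside the stretch, 5 outside), 6 with 5 (6: 1 and 5), and 1 when 1 TPM was required in all 7 libraries (1: 0 and 1). Without a filter on low TPM there were 12 calls, 0 of them inside. Without the variance trend there were 22 calls, 19 outside. With the spread of all 14 libraries there were 13 calls, 6 inside and 7 outside, 5 of them shared. After seeing the data, an alternative without transcripts that had 0 in 3 or more libraries was added, which gave 5 calls, 3 outside. Leaving out 1 library gave 0 to 16 calls, 0 to 1 inside and 0 to 15 outside. Without the KO libraries numbered 18 and 21 there were 0 (0 inside, 0 outside; 747 at an unadjusted limma p under 0.05). Replicate numbers did not pair KO with WT libraries: deviations of same-numbered libraries correlated at -0.17, 0.06 and -0.07, and no library correlated best with its own number. As a fixed replicate block they gave 0 calls (0 inside, 0 outside; 803 at an unadjusted p under 0.05), and as a random block 10. Scaling by median of ratios or quantiles gave 15 calls each. Over 292 fits of the 14 called transcripts, 157 kept the call and 0 reversed direction. With single-library omissions counted apart, uc008nuz.1 lost its call in 7 of 16 settings. For uc011xvn.1 and uc057abb.1 it was 7 of 15, and for uc033jde.1 6 of 15. Apart from uc009hyu.2, the other calls outside the stretch were lost in 3 or 4. No fit leaving out 1 library kept uc008nuz.1, uc007jdq.1, uc033jde.1, uc011xvn.1 or uc057abb.1, and the other calls outside were kept in 1 or 2. Of 462 fits of the 20 named but not called, 5 reversed: uc009vev.1 was 0.0173 with the replicate block, 0.0120 without the KO libraries numbered 18 and 21, and -0.14 to 0.0173 with 1 library left out (0.0173 without the KO library numbered 21). Transcript uc033jng.1 was -0.12 without the KO libraries numbered 18 and 21, and -0.36 to 0.68 with 1 library left out (-0.36 without the WT library numbered 8). The cause was not tested. Read depth is unknown, so what it limits cannot be given.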
